A study of Mus musculus with 20 samples.

Results

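Inner cell mass cells that contained Fgf4 RNA were compared according to whether they also contained Gata6 RNA. The members were 10 of the 20 single cells of the series, those with a deposited intensity over 500 at an Fgf4 probe set. Of these, the 4 cells with an intensity of 100 or more at the brightest Gata6 probe set (cells 2, 12, 13 and 16) are called cells with Gata6. The other 6 (cells 1, 7, 9, 14, 18 and 19) are called cells without Gata6. The remaining 10 cells of the series are called Fgf4-negative and appear below only for reference. The members were thus chosen by their own Fgf4 and Gata6 intensities, so Fgf4 and Gata6 are described without a test, and the sets are not treatment groups.

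Each sample was 1 cell dissociated with trypsin from the inner cell mass of a C57BL/6 blastocyst at embryonic day 3.5, hybridised to 1 Affymetrix mouse array after PCR amplification of its cDNA. The series design states that 55 cells were picked and that 50 were kept because PCR found Oct4 (the gene Pou5f1) but not Cdx2, a gene of the trophectoderm. All cells had the same strain and stage, and the labels name no genotype or treatment that differed between them. The labels do not tie cells to embryos, so some cells may come from the same embryo, and p-values measure only the spread between these cells.

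As background, the inner cell mass of the blastocyst gives rise to the epiblast, which forms the embryo proper, and the primitive endoderm, which forms yolk sac layers. Before these lineages separate, many cells hold the epiblast factor NANOG and the endoderm factor GATA6 together. FGF4, a growth factor secreted by epiblast precursors, acts through FGF receptors and the ERK kinases and favours the endoderm fate in the cells that respond to it.

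The deposited Fgf4 intensities were 1888.86, 1567.77, 4498.72 and 2599.83 in cells 2, 12, 13 and 16. In the 6 cells without Gata6 the lowest was 2641.97, the median 3456.78 and the highest 4967.49. The lowest value inside the threshold was 1567.77 and the highest outside it was 5.37, so no cell lay near the Fgf4 threshold. Cells 2, 12 and 16 read below every cell without Gata6, and cell 13 lay within their range.

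At the brightest Gata6 probe set the intensities were 742.2, 833.02, 151.31 and 230.05 in cells 2, 12, 13 and 16. Without Gata6 they ran from 1 to 88.48, with a median of 39.2. The Gata6 threshold therefore lay between neighbours: 151.31 in cell 13 was the lowest value inside and 88.48 in cell 7 the highest outside. In the Fgf4-negative cells the same probe set read 1564.08 to 3757.09 (median 3205.25), above every Fgf4-positive cell. Cells with Gata6 thus had a reading between those of the other sets, and cells 2 and 12 were closer to the Fgf4-negative cells than cells 13 and 16. A second Gata6 probe set read 38.74, 291.87, 36.15 and 21.73 in the same 4 cells and 19.56 to 66.88 in the cells without Gata6, so only cell 12 stood above the others there. The remaining one read 52.49 to 150.38 across the Fgf4-positive cells and 73.24 to 247.38 in the Fgf4-negative cells, and its ranges overlapped. The Gata6 label of cells 2, 13 and 16 rests on 1 probe set.

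Levels below are given as log2(intensity + 8.49) after quantile normalization, a scale whose lowest possible value is 3.25. Each array's floor came from probe sets for genes that unrelated tissues use, and it lay between 6.48 and 7.07. Values below the floor were read as not above background, and a difference is always cells with Gata6 minus cells without. The median deposited intensity of an array was 28.53 ± 1.35 (SD, n = 4) with Gata6 and 26.28 ± 5.68 (SD, n = 6) without (two-sided exact permutation test over 210 splits, p = 0.686). The share of probe sets above the floor was 29.7% ± 1.40 (SD, n = 4) and 28.5% ± 1.42 (SD, n = 6), with an exact permutation p of 0.233 and 0.686 after Benjamini-Hochberg adjustment over 3 tests. Cell 19 had a median intensity of 15, against 26.01 or more in the other Fgf4-positive cells. The ratio of 3′ to 5′ Gapdh control probe sets, a measure of RNA or cDNA length, was 19.44, 6.54, 10.25 and 4.13 with Gata6 and 2.34 to 16.83 without. The part of these array measures in the results below was not tested.

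NANOG is the factor whose RNA marks epiblast precursors, and Nanog was high in every Fgf4-positive cell. The levels with Gata6 were 11.98, 12.12, 12.24 and 12.19. Without Gata6 the lowest, median and highest were 11.93, 12.19 and 12.44, and the sets overlapped over almost their whole range. The difference was -0.07 (SE 0.11), with a 95% interval from -0.30 to 0.17, a two-sided exact permutation p of 0.552 and 0.686 after adjustment over 3 tests. The interval holds no difference in Nanog larger than 0.30 on the log2 scale. In the Fgf4-negative cells Nanog ran from 3.25 to 11.83 (median 8.08).

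Across genes, no difference between the sets passed the test. Of 9203 genes above the floor in at least 3 Fgf4-positive cells, limma called 0 (0%) at a Benjamini-Hochberg adjusted p under 0.05, and the smallest adjusted p was 0.529. At an unadjusted p under 0.05 there were 482 genes, 5.24% of those tested, with 215 (2.34%) higher with Gata6 and 267 (2.9%) lower. Genes were divided almost evenly by direction, as 4721 were higher with Gata6 and 4482 lower (51.3% higher), and the median difference was 0.01. The values of the 2 sets did not overlap for 103 genes (1.12%), 60 higher (0.652%) and 43 lower (0.467%). The median standard error of a difference was 0.54, which sets the precision of 4 cells against 6.

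**Figure D1:**
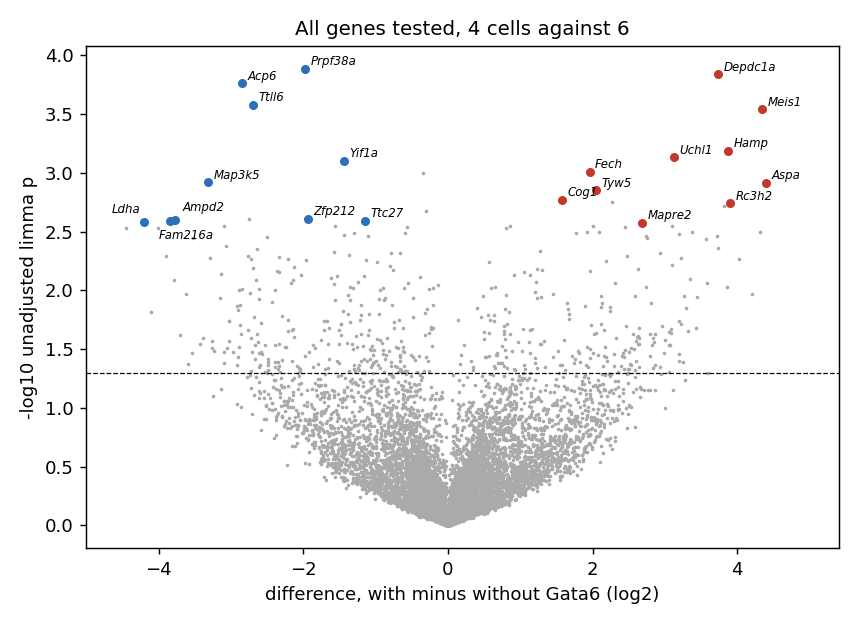
Difference between cells with and without Gata6 (x axis, log2) against -log10 of the unadjusted limma p (y axis) for the 9203 genes tested, with the 10 leading genes in each direction coloured and a dashed line at p of 0.05. The points fall on both sides of 0 in similar number, and none had an adjusted p under 0.05.

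Whole profiles were about as alike between the sets as within them. Over 9205 genes, the median Pearson correlation was 0.64 between pairs of cells with Gata6 (6 pairs, 0.60 to 0.67) and 0.66 between pairs without (15 pairs, 0.62 to 0.72). Between cells of different sets it was 0.65 (24 pairs, 0.61 to 0.69). With an Fgf4-negative cell as partner, the median was 0.62 for cells with Gata6 (40 pairs) and 0.62 for cells without (60 pairs). The measure thus set even the Fgf4-negative cells apart only slightly, and says little about likeness. It used only genes above the floor in at least 3 Fgf4-positive cells, which left out genes such as Gata4 that only Fgf4-negative cells had. All are correlations across genes, which are not independent replicates, and pairs share cells.

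The other epiblast markers were described next, beginning with the pluripotency factors. Of the 13 genes of the epiblast list, 11 besides Fgf4 could be tested, 3 were higher and 8 lower with Gata6, 0 were called and 2 had an unadjusted p under 0.05. Over all genes tested, 51.3% were higher and 5.24% had an unadjusted p under 0.05. The median difference of the list was -0.25, against 0.01 over all genes tested. Sox2, the partner of OCT4 in the pluripotency network, read 11.97, 11.83, 11.52 and 11.96 with Gata6 and 11.43 to 12.45 (median 12.19) without. Its difference was -0.25 (SE 0.19), with a 95% interval from -0.67 to 0.18. Klf2, a Krüppel-like factor of naive pluripotency, differed by -0.16 (SE 0.20), Tdgf1, the Nodal co-receptor, by 0.03 (SE 0.09), and Gdf3, a TGF-beta family ligand, by 0.15 (SE 0.32). All 4 were above the floor in all 10 cells.

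Somewhat lower readings with Gata6 were seen for the chromatin-associated factor Utf1 and the nuclear receptor Esrrb, which also act in pluripotency. Utf1 read 10.39, 10.26, 10.17 and 10.79 with Gata6, and its lowest, median and highest without were 10.48, 11.07 and 11.75. The difference was -0.70 (SE 0.31, limma adjusted p = 0.942), and only cell 16 reached the range of the other set. Esrrb read 10.43, 10.53, 10.33 and 9.64 against 10.29 to 11.31 (median 10.82), a difference of -0.60 (SE 0.27, limma adjusted p = 0.942), with overlapping sets.

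A few epiblast genes were present in some cells and absent in others within both sets. Prdm14, a repressor of differentiation genes, exceeded the floor in 3 of 4 cells with Gata6 and 5 of 6 without, and differed by -1.40 (SE 1.62). Bmp4, a ligand of the BMP pathway, was above it in 2 of 4 and 4 of 6, and differed by -1.21 (SE 2.06). Enox1 was above the floor in 1 of 4 and 3 of 6 (difference -1.71, SE 1.90), and Otx2, a homeobox factor of later epiblast, in 2 of 4 and 2 of 6 (difference 0.22, SE 1.36). With values that jump between floor and high level, differences of several log2 units were not detectable with these cell numbers. Nodal was above the floor in none of the 10 cells.

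Among general pluripotency genes, 16 were tested, 6 higher and 10 lower with Gata6, with a median difference of -0.02. None was called and 2 had an unadjusted p under 0.05, beside 5.24% of all genes tested. Pou5f1, the gene of OCT4 and the subject of the PCR screen, read 10.58, 10.84, 10.71 and 10.73 with Gata6. Without Gata6 its lowest, median and highest were 10.72, 11.28 and 11.58. The difference was -0.45 (SE 0.19, limma adjusted p = 0.942), and cells 1 and 19 lay within the range of the cells with Gata6. Sall4, a zinc finger partner of OCT4, differed by -0.48 (SE 0.20, limma adjusted p = 0.936), and Tcl1, an AKT co-activator, by 0.93. A second Sall4 probe set, above the floor in 1 of 4 and 4 of 6 cells, differed by -2.13.

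Primitive endoderm markers gave no shared pattern in the cells with Gata6. Of 27 genes in the list, 11 besides Gata6 were tested: 6 were higher and 5 lower with Gata6, with a median difference of 0.07, and 0 were called or had an unadjusted p under 0.05. The sign of that median changed with the setting, from -0.23 without cell 16 to 0.35 without cell 13. The other measured markers were too low in these cells to be tested. Counted per cell over 22 endoderm markers, Gata6 left out, the number above the floor was 11, 13, 6 and 10 in cells 2, 12, 13 and 16. It was 7 to 10 in the cells without Gata6 and 13 to 19 in the Fgf4-negative cells. Cell 12 reached the lowest count of the Fgf4-negative cells, and cell 13 had the lowest count of all 10 Fgf4-positive cells. The count of cell 12 includes Sox7 at 6.62, close to that array's floor of 6.56. The mean level of the same markers was 6.97, 6.64, 5.92 and 6.80 in cells 2, 12, 13 and 16. It was 5.78 to 6.80 without Gata6 and 7.79 or more in the Fgf4-negative cells, so cell 12 did not reach those by level.

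Gata4 and Sox17, factors that follow GATA6 in endoderm formation, were below the floor in all 4 cells. Gata4, a GATA factor of the endoderm, was above it in 0 of 4 cells with Gata6, 0 of 6 without and 10 of 10 Fgf4-negative cells. Its levels were 5.06, 3.89, 4.07 and 3.25 with Gata6 and 3.25 to 4.69 without, against 7.37 to 10.54 in the Fgf4-negative cells. Sox17, an SRY-box factor of endoderm, read 3.25, 4.71, 4.50 and 3.63 with Gata6. It was above the floor in 1 of the 6 cells without Gata6, cell 1 at 9.87, whose Gata6 intensity was 18.97. Sox7 read 6.08, 6.62, 6.41 and 6.65 with Gata6 and 6.32 to 6.51 without. Although 2 of the 4 readings exceeded their array's floor, all lay within the range of the Fgf4-negative cells, where none did (5.97 to 6.82). Hnf4a, a nuclear receptor of endoderm and liver, was above the floor in all 10 Fgf4-positive cells and in 6 of 10 Fgf4-negative cells, with a difference of 0.07 (SE 0.88). Foxa2 was above the floor in none of the 10.

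Receptors and transporters of the endoderm were above the floor in some cells and not in others. Pdgfra, the PDGF receptor of primitive endoderm, read 10.20, 10.21, 3.25 and 3.25 with Gata6. Without Gata6 it read 7.74, 9.78 and 8.02 in cells 1, 7 and 9 and 3.25 in cells 14, 18 and 19. At this probe set it was thus above the floor in 2 of 4 and 3 of 6 cells and at the lowest value in the rest, a difference of 0.85 (SE 1.96). Other Pdgfra probe sets were above the floor in 2 of 4 and 0 of 6 cells (difference 1.48) and in 1 of 4 and 0 of 6 (difference 1.54). The presence of Pdgfra in cells without Gata6 therefore held at 1 probe set only. All Fgf4-negative cells had 11.76 or more.

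Fgfr2, an FGF receptor, was above the floor only in cell 12 (7.42) among the 10, against 9 of 10 Fgf4-negative cells. Cubn, the endocytic receptor cubilin, was above it only in cell 13 (9.94), and the water channel gene Aqp8 only in cell 16 (9.44). Each of these 3 genes therefore marked a different cell with Gata6 and no cell without. The endocytic genes Dab2 and Amn were above the floor in none of the 10 cells, nor were Bmp2, Ttr, Afp and Srgn. Lrp2, the receptor megalin, was above it in cell 1 alone among the 10 cells.

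**Figure D2:**
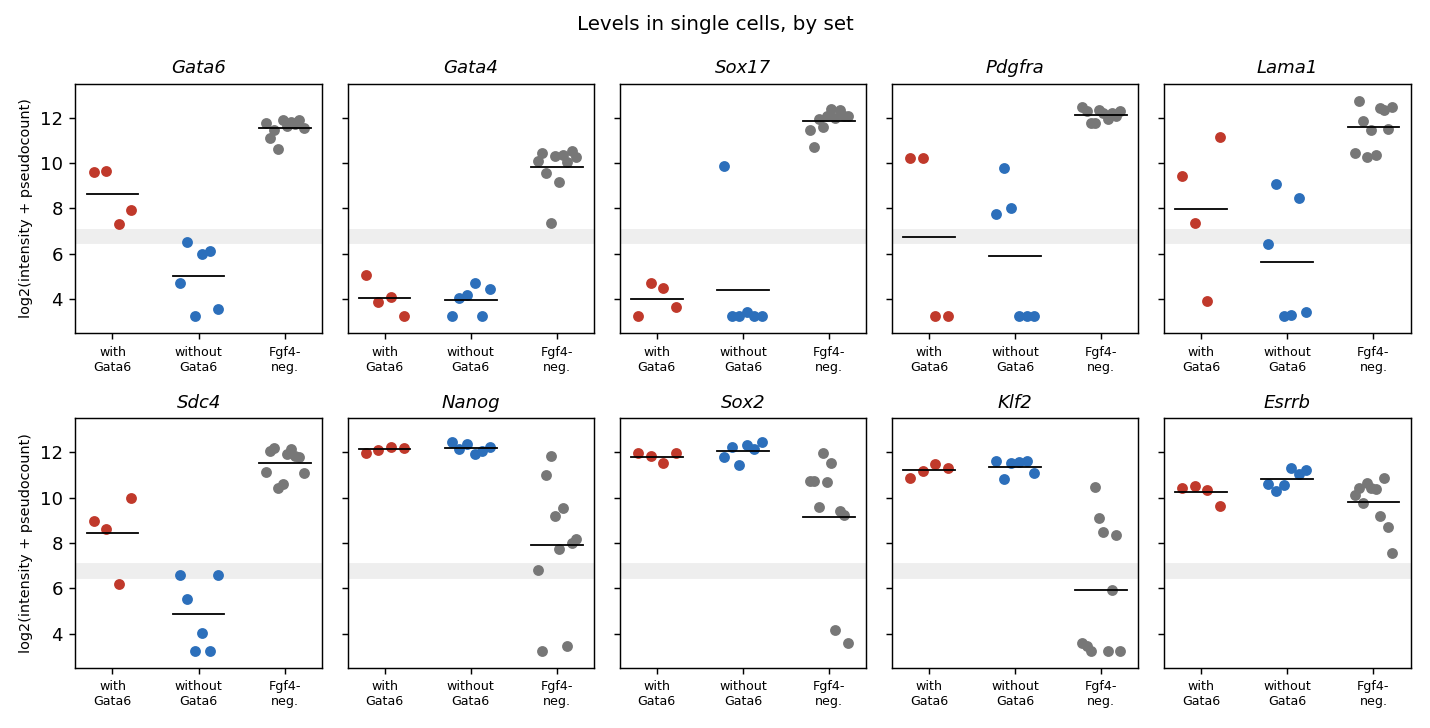
Levels of 10 genes (y axis, log2(intensity + 8.49)) in the 4 cells with Gata6, the 6 without and the 10 Fgf4-negative cells; each point is 1 cell, the black line is the mean and the grey band spans the floors of the arrays. Gata4 lay below the band in all 10 Fgf4-positive cells, Nanog lay between 11.93 and 12.44 in them, and Pdgfra and Lama1 were above it in some cells of both sets.

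Several matrix genes of the endoderm were above the floor in Fgf4-positive cells of both sets. Sparc, a matrix glycoprotein, differed by 0.07 (SE 0.35), and the laminin subunit genes Lamb1 and Lamc1 by -0.14 (SE 0.67) and -0.31 (SE 0.51). These 3 were above the floor in all 10 cells. A second Sparc probe set was above the floor in 2 of 4 and 6 of 6 cells and gave -2.60, so the probe sets of this gene disagreed. The collagen IV genes Col4a1 and Col4a2 differed by -0.71 (SE 1.66) and 0.49 (SE 1.38). Lama1, the laminin alpha chain, read 9.43, 7.35, 3.90 and 11.16 with Gata6. Without Gata6 it read 3.25 to 9.05 with a median of 4.92. The difference was 2.31 (SE 1.65, limma adjusted p = 0.958), with 3 of 4 and 2 of 6 cells above the floor. Of the remaining markers, the transcriptional co-regulator gene Cited1 differed by 1.07 (SE 1.59), the lipoprotein gene Apoe by -1.29 (SE 1.54) and the WNT potentiator gene Rspo3 by -0.08 (SE 0.10). Rspo3 read 11.26 to 11.6 in the Fgf4-positive cells and 11.21 to 11.83 in the Fgf4-negative cells, so it did not tell these apart.

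Trophectoderm forms the blastocyst's outer wall, and its markers were examined as those of another cell type that a dissociated blastocyst could supply. Of 11 tested, 5 were higher and 6 lower, 0 were called, and the median difference was -0.00. The number above the floor per cell, of 12 counted, was 9, 8, 7 and 8 with Gata6, 6 to 8 without and 4 to 7 in the Fgf4-negative cells. Hand1 and Gata2 were above the floor in every cell of the series (13.58 to 13.78 and 7.57 to 8.73), so they add to each count alike. Cdx2, which the PCR screen required to be negative, read 7.09, 7.21, 7.08 and 7.96 with Gata6 and 6.81 to 8.26 without. It was above the floor in 4 of 4, 5 of 6 and 10 of 10 Fgf4-negative cells, although the PCR screen had kept Cdx2-negative cells. Its means in these sets were alike and little above the floor (7.33, 7.40 and 7.47), so the readings do not establish Cdx2 RNA. Eomes, a T-box factor, was above the floor in cells 2 and 16 (8.41 and 9.48) and in 1 cell without Gata6. Lgals3, the lectin galectin-3, differed by 1.70 (SE 0.84, limma adjusted p = 0.942) and Tead4, the TEAD factor of this lineage, by -2.33 (SE 1.20, limma adjusted p = 0.948).

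The FGF pathway was followed from receptor to target. Of 38 genes in the list, 31 were measured and 22 tested: 8 were higher and 14 lower with Gata6, the median difference was -0.30, and 0 were called, with 2 at an unadjusted p under 0.05. The shares over all genes tested were 51.3% higher and 5.24% at that p. Fgfr1, an FGF receptor gene, read 10.39, 10.48, 10.07 and 9.91 with Gata6 and 8.90 to 9.92 (median 9.63) without. The difference was 0.67 (SE 0.28, limma adjusted p = 0.936), and cell 16 alone reached the other set's range. Fgfr4 was above the floor in all 10 Fgf4-positive cells and differed by -0.02 (SE 0.25). It read only 6.89 to 7.42 in them and 6.90 to 7.36 in the Fgf4-negative cells, close to the floor. Fgfr2 is given above, and Fgfr3 was above the floor in none of the 10 cells.

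The other FGF gene at an unadjusted p under 0.05 was Sdc4, the heparan sulphate proteoglycan syndecan-4, a class of co-receptor for FGFs. It read 8.96, 8.64, 6.18 and 9.99 with Gata6. Without Gata6 the lowest, median and highest were 3.25, 4.79 and 6.61, and cell 13 lay among them. Sdc4 exceeded the floor in 3 of 4 cells with Gata6, 0 of 6 without and 10 of 10 Fgf4-negative cells, where it read 10.41 to 12.19. The means were 8.44 ± 1.61 (SD, n = 4) and 4.88 ± 1.57 (SD, n = 6) (limma adjusted p = 0.662). With cells below background set at the floor of their array (low values raised), Sdc4 was 3.47-fold higher with Gata6. Below, such a fold of means is called "at least" only where every cell of the higher set was above the floor. A second Sdc4 probe set exceeded the floor in 3 of 4 cells with Gata6 and 2 of 6 without, and differed by 0.89, so the absence of Sdc4 from cells without Gata6 held at 1 probe set only.

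Within the kinase cascade, differences were 0.56 (SE 0.40) for the phosphatase SHP2 gene Ptpn11, 1.23 (SE 1.55) for Braf, -1.17 (SE 0.71) for Araf and 0.15 (SE 0.24) for the MEK1 gene Map2k1. Another Araf probe set, above the floor in 1 of 4 and 6 of 6 cells, differed by -2.53. The remaining Araf probe sets ran from -0.14 to 0.65, with most cells below the floor. Of the feedback inhibitors, Spry2 differed by 0.03 (SE 0.50), with a 95% interval from -1.07 to 1.13, and the ERK phosphatase gene Dusp6 by -0.58 (SE 1.57). Dusp4 and Spred1 were above the floor in 0 of the 10 Fgf4-positive cells and in 8 of 10 Fgf4-negative cells each. Spry4 was above it in 0 of 4, 2 of 6 and 7 of 10. Among transcriptional targets, Etv5 differed by -0.36 (SE 0.32), Egr1 by -1.45 (SE 1.70) and Myc by -0.80 (SE 0.77). None of the feedback inhibitors and targets that could be tested (Spry2, Spred2, Dusp6, Etv5, Egr1 and Myc) had an unadjusted p under 0.05. Spry1, Spry4, Spred1, Dusp4 and Etv4 were too low to be tested.

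The genes with the smallest p in each direction are given as values only, since none passed the adjusted threshold. They are the 10 per direction whose difference was at least 1 when values below the floor were raised to it. Adjusted p-values were 0.529 to 0.66.

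Depdc1a, a gene of mitotic spindle function, read 6.91, 8.69, 7.80 and 7.91 with Gata6 and 3.25 to 5.76 (median 3.84) without. It was above the floor in 4 of 4, 0 of 6 and 2 of 10 Fgf4-negative cells, and was at least 2.09-fold higher with Gata6 (means 7.83 and 4.09, limma adjusted p = 0.529). Meis1, a homeobox factor, read 6.54, 8.27, 9.62 and 7.92 against 3.25 to 5.98 (median 3.25). It was above the floor in 3 of 4, 0 of 6 and 8 of 10 cells, and 2.64-fold higher with low values raised (means 8.09 and 3.74, limma adjusted p = 0.53). A second Meis1 probe set differed by 0.22. Uchl1, a ubiquitin hydrolase gene, read 10.28, 6.95, 7.82 and 6.88 against 4.38 to 5.22, and was at least 2.33-fold higher (means 7.98 and 4.86, limma adjusted p = 0.66). For these 3 genes the sets did not overlap.

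Fech, the gene of ferrochelatase, which completes haem synthesis, was above the floor in nearly all cells of both sets. It read 9.07, 9.35, 8.84 and 9.31 with Gata6 and 6.28 to 8.58 (median 6.96) without, with no overlap. The difference was 1.96 (SE 0.43, limma adjusted p = 0.66), and a second Fech probe set gave 3.48. Tyw5, which encodes a tRNA-modifying hydroxylase, differed by 2.05 (SE 0.47) and Cog1, a Golgi complex subunit gene, by 1.58 (SE 0.38). One of the other 4 Cog1 probe sets differed by -1.30, whereas the remaining ones ran from 0.84 to 1.64. The microtubule-binding protein gene Mapre2 differed by 2.69 (SE 0.68), with 2.61 at another probe set. These 3 also did not overlap between the sets.

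Aspa, the aspartoacylase gene, Rc3h2, an RNA-binding ubiquitin ligase gene, and Hamp, the gene of the iron hormone hepcidin, were above the floor in 4 of 4 cells with Gata6 and 1 of 6 without. Their differences were 4.40 (SE 1.0), 3.90 (SE 0.94) and 3.88 (SE 0.80). The cell without Gata6 that was above the floor was cell 9 for Aspa (8.68) and cell 7 for both Rc3h2 (8.75) and Hamp (7.31). Hamp was above the floor in 0 of 10 Fgf4-negative cells, and it has a near-identical paralogue, so its readings are uncertain. Another Rc3h2 probe set differed by -0.48.

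Among the genes lower with Gata6, Prpf38a, a splicing factor gene, had the smallest p. It read 9.0, 7.76, 8.53 and 8.08 with Gata6 and 9.77 to 10.84 (median 10.34) without, with no overlap. The difference was -1.97 (SE 0.33, limma adjusted p = 0.529). Yif1a, a gene of Golgi transport, read 8.63, 9.10, 9.83 and 9.02 against 10.10 to 11.05, a difference of -1.44 (SE 0.31) with -1.69 and -1.46 at other probe sets. Ttc27 differed by -1.14 (SE 0.29), also without overlap.

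Acp6, a lysophosphatidic acid phosphatase gene, exceeded the floor in 0 of 4 cells with Gata6 and 6 of 6 without, and was at least 2.41-fold lower with Gata6 (means 5.05 and 7.90, limma adjusted p = 0.529). Map3k5, the stress kinase ASK1 gene, was above it in 0 of 4 and 4 of 6 and 2.60-fold lower with low values raised (means 4.51 and 7.82, limma adjusted p = 0.66). Ampd2, an AMP deaminase gene, and Fam216a were above it in 0 of 4 and 5 of 6 cells. They were 3.34-fold and 2.19-fold lower with low values raised (limma adjusted p = 0.66 for both). Ttll6, a tubulin polyglutamylase gene, differed by -2.69 (SE 0.50) and Zfp212 by -1.94 (SE 0.49).

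Ldha, the lactate dehydrogenase A gene of glycolysis, read 8.34, 3.5, 4.23 and 7.81 with Gata6 and 8.66 to 12.19 (median 10.04) without. The sets did not overlap, and the difference was -4.20 (SE 1.07, limma adjusted p = 0.66). It was above the floor in all Fgf4-negative cells (8.37 to 12.31), and near-identical copies in the genome make its readings uncertain.

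**Figure D3:**
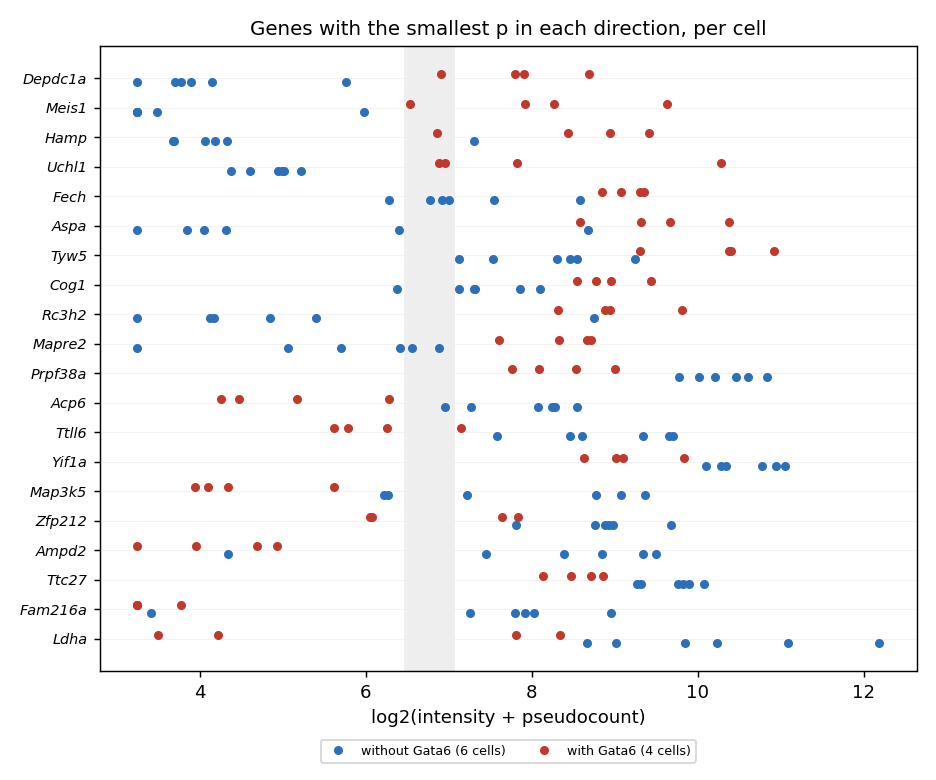
Level of each of the 20 leading genes (x axis, log2(intensity + 8.49)) in the 4 cells with Gata6 (red) and the 6 without (blue), 1 point per cell, with a grey band over the floors of the arrays. For Depdc1a and Uchl1 all blue points lie below the band, whereas for Prpf38a and Yif1a both sets lie above it and do not overlap.

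Further lists were examined for genes of the tissue's signalling, cycle and metabolism, and 0 genes of any list were called. Their counts by direction stand beside 51.3% higher over all genes tested. For basement membrane synthesis 10 of 16 tested were higher with Gata6 and the median difference was 0.13. Plod2, a collagen lysyl hydroxylase gene, read 6.82, 10.25, 9.47 and 6.96 against 3.25 to 8.63 (median 3.28), a difference of 3.85 (SE 1.21, limma adjusted p = 0.76), with 3.88 at another probe set. It was above the floor in 3 of 4, 1 of 6 and 10 of 10 Fgf4-negative cells. Nid1, the nidogen-1 gene, differed by -0.90 (SE 0.42), and by -0.14 at another probe set above the floor in 3 of 4 and 4 of 6 cells.

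DNA methylation genes numbered 9 tested, 5 higher and 4 lower, with 2 at an unadjusted p under 0.05, beside 5.24% of all genes tested. Dnmt3l, the cofactor of the de novo methyltransferases, read 9.92, 10.04, 6.44 and 8.63 with Gata6 and 3.25 to 8.97 (median 4.47) without. The difference was 3.24 (SE 1.39, limma adjusted p = 0.942), with 3 of 4, 2 of 6 and 10 of 10 Fgf4-negative cells above the floor. Dnmt1, the maintenance methyltransferase gene, read 10.17, 9.90, 9.66 and 10.92 against 10.65 to 11.54, a difference of -0.90 (SE 0.28, limma adjusted p = 0.76). Other Dnmt1 probe sets gave -1.03 and -1.01, and only cell 16 lay within the range of the cells without Gata6.

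In the list of cell adhesion and polarity, 8 of 18 tested were higher and 10 lower (median difference -0.01), and 2 were lower without overlap, beside 43 of all 9203 genes (0.467%). Cldn7, a claudin of tight junctions, read 9.47, 9.64, 8.05 and 9.86 with Gata6 and 10.08 to 11.48 without (difference -1.56, SE 0.40, limma adjusted p = 0.66). The other was Llgl1, a polarity gene named after its values were seen (difference -0.69, SE 0.33, limma adjusted p = 0.942). Pard6b, a polarity complex gene, differed by 1.53 (SE 1.08). Stress and dissociation genes had a median difference of -0.38 over 11 tested, 4 higher and 7 lower. Ier2, an immediate early gene, read 6.03, 8.70, 5.56 and 5.51 against 7.42 to 10.33 (difference -2.72, SE 0.78, limma adjusted p = 0.716), and Jund differed by 1.28 (SE 0.64). Of the 11, 1 had an unadjusted p under 0.05, beside 5.24% of all genes tested, and Ier2 and Jund differed in opposite directions. The part of dissociation genes in the other differences was not tested.

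Cell cycle lists gave medians of -0.16 over 23 G2 and M phase genes and 0.02 over 20 S phase genes, with none at an unadjusted p under 0.05. The mitotic cyclin gene Ccnb2 differed by 0.39 (SE 0.23), Cdk1 by -0.18 (SE 0.09), and the helicase genes Mcm4 and Mcm2 by 0.56 (SE 0.27) and -0.19 (SE 0.19). For glycolysis, 3 of 11 were higher and 8 lower, with a median of -0.22. Tpi1 of that list differed by 0.50 (SE 0.78).

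The LIF and STAT3 list had 5 of 10 higher and a median of 0.00. Jak1, its kinase, differed by 2.02 (SE 0.76, limma adjusted p = 0.912) and Pim1, a STAT3 target, by -1.37 (SE 0.82). Another Pim1 probe set, above the floor in 4 of 4 and 6 of 6 cells, gave -0.21. Nodal, BMP and WNT genes were 11 higher and 11 lower (median -0.06), led by Apc of the WNT destruction complex at 1.12 (SE 0.52) and the activin receptor gene Acvr2b at -1.17 (SE 0.73). At other probe sets Apc ran from -0.07 to 0.07 and Acvr2b gave 0.48 and 0.23, with most cells below the floor. Apoptosis regulators had a median of 0.11 over 12, with Xiap at 0.57 (SE 0.21) and Birc2 at -1.42 (SE 0.66). The only other Xiap probe set above the floor in 4 of 4 and 6 of 6 cells gave 0.07.

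Oocyte and maternal genes had a median of 0.01 over 5, with the zona pellucida gene Zp3 at 1.39 (SE 1.04) and Ooep at -0.68 (SE 0.52). Reference genes, chosen as genes that most cells use, had a median of 0.00 over 9, with Ywhaz at 0.13 (SE 0.13) and Sdha at -0.36 (SE 0.27). Of 15 mitochondrial and ribosomal genes, 2 were higher and 13 lower (13.3% higher, beside 51.3% of all genes tested), with a median of -0.08. In that list Cox6c differed by 0.15 (SE 0.09) and Rps6, which has near-identical copies, by -2.33 (SE 0.92).

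**Figure D4:**
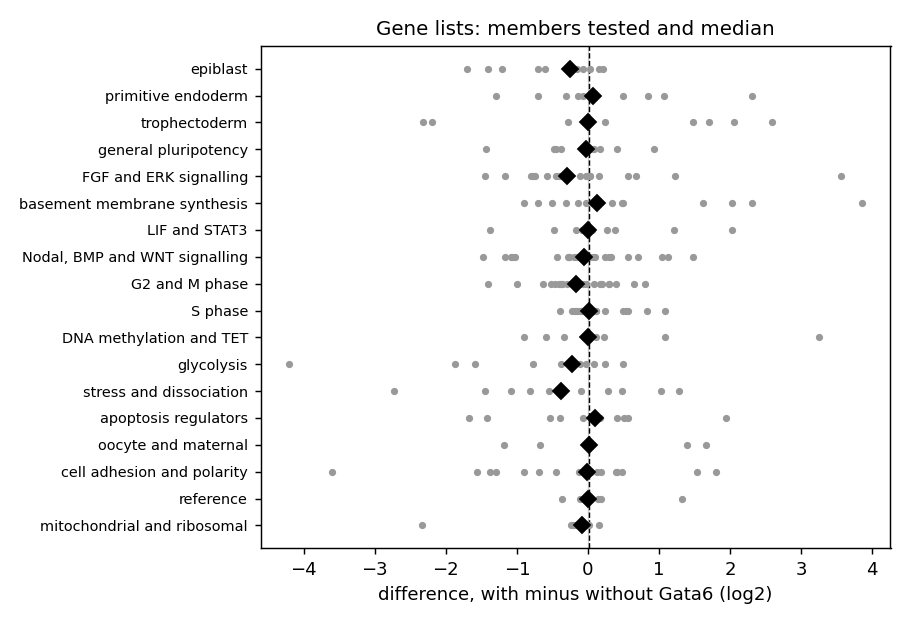
Difference between cells with and without Gata6 (x axis, log2) for each tested member of 18 gene lists (grey points), with the median of the list (black diamond) and the median of all genes tested (dashed line, 0.01). The medians lie between -0.38 and 0.13, while single members reach about 4 log2 units on either side.

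Last, each Fgf4-positive cell was placed on genes that distinguished the Fgf4-negative cells. This list was chosen after the data were seen and holds 114 tested genes, Gata6 left out, whose mean was at least 2 higher in the Fgf4-negative cells than in all 10 Fgf4-positive cells. The mean level of these genes, centred per gene over the 10 cells, was 0.46, 0.59, -0.28 and 0.56 in cells 2, 12, 13 and 16. Without Gata6 it was 0.11 in cell 1, 0.22 in cell 7, -0.82 in cell 9, -0.24 in cell 14, -0.00 in cell 18 and -0.59 in cell 19. Cells 2, 12 and 16 had the highest values of the 10, and cell 13 lay within the range of the cells without Gata6. The median difference of the list was 0.59, and it was 0.19 with values below the floor raised to it.

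Across the 10 cells, the mean level of the 114 genes and the Gata6 level had a Pearson r of 0.84 and a Spearman rho of 0.83. At Gata6, 0 of the 6 cells without Gata6 were above the floor, so the order among them rests on background readings. Without cells 2 and 12, farthest from the median Gata6 level, r was 0.76. Without cells 9 and 19, which had the lowest values and of which cell 19 also had the lowest median intensity, r was 0.65. Both measures come from the same arrays and the list from a contrast that includes these cells, so the values are a description. The list also holds only genes above the floor in at least 3 Fgf4-positive cells. Sdc4 passed that filter through 3 cells with Gata6 alone, while Gata4 and Sox17, above the floor in all Fgf4-negative cells, did not pass. The filter can thus favour genes that follow Gata6, and its part in the r was not tested. For 298 genes at least 2 lower in the Fgf4-negative cells, the mean level was 0.18, -0.34, 0.20 and -0.54 in cells 2, 12, 13 and 16 and -0.31 to 0.45 without Gata6, with an r of -0.26. Cells 12 and 16 lay below every cell without Gata6, and cells 2 and 13 within their range.

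**Figure D5:**
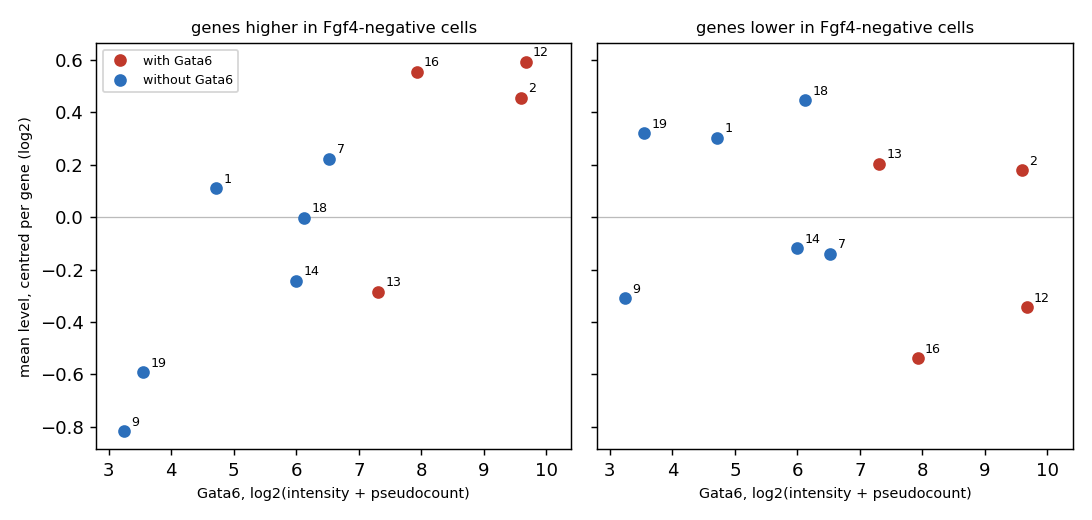
Mean level of the 114 genes higher (left) and the 298 genes lower (right) in Fgf4-negative cells, centred per gene (y axis, log2), against the Gata6 level (x axis, log2(intensity + 8.49)) in each of the 10 Fgf4-positive cells, numbered by cell. On the left, cells 2, 12 and 16 have the highest values and cells 9 and 19 the lowest, and on the right, cells with Gata6 lie from -0.54 to 0.20.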

How the data were processed

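Each of 20 single inner cell mass cells was hybridised to 1 Affymetrix array. Per the labels' protocols, cDNA was amplified by PCR from the cell lysate and labelled by the one-cycle method. The authors deposited 1 linear intensity per probe set and array. Intensities ran from 1 to 26615.9, and 10.1% to 13.4% of each array's values were 1. How probe sets were summarised and normalized is not given in the sources used here. Because the trimmed means of the arrays ran from 178.8 to 216.7, the deposited intensities were quantile normalized. They were then put on a log2 scale as log2(intensity + 8.49), where 8.49 is the median of the arrays' 25th percentile, so differences understate the change of low genes.

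The table held 45101 probe sets, 64 of them controls. By the platform annotation, 34945 had 1 gene, 932 several and 9160 none, and 34741 were found in RefSeq through their Entrez number. The brightest probe set over the 20 cells stood for each of 18193 genes. An array's floor was the 95th percentile over 191 probe sets for genes of unrelated tissues. Genes above it in at least 3 Fgf4-positive cells entered the test (R 4.3.3, limma 3.58.1, lmFit, eBayes with trend, Benjamini-Hochberg at 0.05, two-sided), with Fgf4 and Gata6 left out. The steps were tested on simulated data. Arrays have no read depth, and their number limits the precision. Pairs of arrays that shared most values numbered 0. Files name no genome build, so no coordinates are given.

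The cells, gene lists and rules were chosen with earlier results of these data known. Named genes were every epiblast and primitive endoderm marker above the floor in at least 1 Fgf4-positive cell, Pou5f1, the 10 genes with the smallest p in each direction with a difference of at least 1 over the floor, and the member of each other list with the smallest p in each direction. Other genes of the FGF list and Cdx2 and Eomes were added after their values were seen. Alternatives covered normalization, pseudocount, floor, filter, probe set choice, model, Gata6 split and leaving out each cell.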

Additional observations from a re-analysis of the deposited data

Results flagged for a closer look

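Within each set, a cell far from its fellows was looked for by the gap to the nearest other cell over the range of the set (Dixon's limit). Of 174 sets of values checked, 20 passed the limit, and chance alone passes about 1 in 20. None was examined for a cause.

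In single cells with Gata6, endoderm genes stood apart at a high level: Fgfr2 in cell 12 (7.42, next 4.55), Cubn in cell 13 (9.94, next 4.03) and Aqp8 in cell 16 (9.44, next 4.88). Among cells without Gata6, Sox17 stood apart in cell 1 (9.87, next 3.44). Col4a1 was lowest in cell 13 (3.25) with Gata6 and in cell 9 (3.25) without, and Sparc was lowest in cell 14 (9.89). The epiblast genes Prdm14 and Enox1 stood apart in cell 9 (3.25, without Gata6) and cell 2 (8.85, with Gata6).

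Of the leading genes, Depdc1a was highest in cell 18 (5.76), Meis1 in cell 7 (5.98) and Hamp in cell 7 (7.31) among cells without Gata6. Fam216a stood apart in cell 2 with Gata6 (3.78, the others at 3.25) and in cell 18 without (3.41), below the floor in both. With Gata6, cell 12 was lowest for Lgals3 (5.62) and highest for Ier2 (8.70). Without Gata6, Pim1 was lowest in cell 18 (6.46) and Mcm2 in cell 1 (11.27). The median deposited intensity of cell 19 was 15, and the ratio of 3′ to 5′ Gapdh control probe sets in cell 9 was 16.83, against 6.32 in the next cell without Gata6.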

How the results depend on the processing

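No gene was called under the other normalizations, pseudocounts, floors, filters, probe set choices or models tried, and the floor at the 99th percentile was added after the data were seen. Splitting the cells by the second Gata6 probe set left cell 12 alone against 9, with 5 genes called, all lower (Chchd1, Clns1a, Lpar1, Zfp263 and Zfp740, adjusted p 0.00402 to 0.0354). There 1557 genes did not overlap, and the lone cell is assumed to vary like the others. With no filter on low values, 843 genes had an unadjusted p under 0.05 and 158 did not overlap, from 18191 tested. Leaving out each cell in turn gave 0 to 1 genes called, the one without cell 13 being Ankrd54 (-4.38, adjusted p = 0.0342, against -3.14 and 0.756 with all cells). It gave 439 to 517 genes at an unadjusted p under 0.05 and 134 to 264 without overlap. The Nanog difference ran from -0.12 to -0.02, the epiblast median from -0.37 to -0.19 and the primitive endoderm median from -0.23 to 0.35, and the last was below 0 without cell 2, 7, 14 or 16. It was also below 0 with a filter of 6 cells instead of 3 (-0.11), the mean of all probe sets (-0.13), the second Gata6 probe set (-0.06) and the higher floor (-0.00). The 20 leading genes kept their direction in the alternatives where they were tested (438 values). They were chosen for small p in these same cells, so this is no separate support for them. Of the other named genes' values, 21 moved by more than the spread between cells and 1222 did not. No paired analysis was possible because the labels put all cells in 1 group and give no number shared between sets.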
